A study of Homo sapiens with 4 samples.

Results

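The interleukin-1 (IL-1) family genes described here were 9 of the 57815 genes in the deposited expression table: the ligands IL1A, IL1B, IL18 and IL33, the receptor antagonist IL1RN, and the receptor chains IL1R1, IL1R2, IL1RAP and IL1RL1. They were found by gene symbol, and they had been selected on this same comparison of cell lines, so their values are given as a description without a test. RNA-Seq was performed on untreated MDA-MB-231, a triple-negative human breast cancer cell line, and on LM2-4175, a subline of it that had been selected for metastasis to the lung. Both lines were grown alike in serum-containing DMEM, and each was represented by 2 libraries, labelled as replicates without a statement that they came from separate cultures. The authors combined the libraries of a cell line into 1 FPKM value per gene (fragments per kilobase of exon, scaled to the number of mapped fragments), with a lower and an upper bound. No spread between libraries could therefore be measured, and those bounds are the only error available. Each line is a culture of cancer cells alone, so the values say nothing of the tissue in which such cells grow.

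IL-1α and IL-1β, the products of IL1A and IL1B, are proinflammatory cytokines that bind the receptor chain IL1R1, which then recruits the shared accessory chain IL1RAP and signals through MYD88 and IRAK kinases to NF-κB. IL1RN encodes an antagonist that occupies IL1R1 without this recruitment, and IL1R2 is a decoy receptor without a signalling domain. IL-33 signals through IL1RL1 paired with IL1RAP, whereas IL-18 uses its own receptor pair and, like IL-1β, is released in its active form after cleavage by caspase-1. In breast cancer, IL-1 signalling is known as a part of the exchange between tumour cells and the surrounding stroma.

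Genes were compared as the log2 ratio of FPKM + 1 in LM2-4175 over MDA-MB-231. On this scale, changes of genes with low FPKM appear smaller than they are. A gene passed the filter when its status was OK in both lines and its mean FPKM was at least 0.5, and it was called higher or lower when this ratio was at least 1.5-fold and the bounds of the lines did not overlap. Of the 13911 genes that passed, 649 (4.67%) were called higher in LM2-4175, 641 (4.61%) were called lower, and 9.27% were called in either direction. The median log2 ratio of all these genes was -0.04. Of the 9 IL-1 family genes, 5 passed the filter. IL1A and IL1B were called higher, IL1R1 was called lower, and IL18 and IL1RAP were not called. The other 4 genes, IL33, IL1RN, IL1R2 and IL1RL1, were under the filter in both lines. As these genes were chosen from this contrast, nothing is read from that count.

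The identity of the lines was checked with marker genes. ESR1, PGR and FOXA1, markers of luminal and hormone receptor-positive breast cancer, were each below 0.5 FPKM in both lines, while GATA3 (3.1 and 2.42 FPKM) and ERBB2 (34.95 and 22.8 FPKM in MDA-MB-231 and LM2-4175) were detected. VIM, which encodes the mesenchymal filament protein vimentin, was the highest of 6 genes listed for mesenchymal-like cancer cells at 1355 and 1768 FPKM, with overlapping bounds. All 6 were detected, and their median log2 ratio was -0.36. As the list includes epithelial keratin genes, this median is not read as a change of mesenchymal identity. The keratin genes KRT8 (625.7 and 180.2 FPKM) and KRT18 (448.5 and 181.1 FPKM) were called lower, and CD44, AXL and EGFR were not called. Because IL1A and IL1B are also made by leukocytes, 14 white blood cell genes were examined. Of these, 11 were below a mean of 0.5 FPKM, 4 were listed at 0 in both lines, and none was called. The list summed to 111.6 FPKM in MDA-MB-231 and 181.8 FPKM in LM2-4175, nearly all of it from CD68, a lysosomal protein gene with wide bounds (107.0 FPKM, bounds 0 to 237.6, and 178.9 FPKM, bounds 10.6 to 347.2). CSF1R (2.92 and 0.79 FPKM) and CD14 (1.17 and 1.75 FPKM) also passed the filter. Their bounds lay above 0 in both lines and overlapped between them. PTPRC, the pan-leukocyte marker CD45, had 0.0767 and 0.0263 FPKM. Of 3 endothelial genes examined, KDR, the VEGF receptor 2, passed the filter and was called higher (0.971 to 2.48 FPKM), and none of 5 lung epithelium genes passed, the highest being NKX2-1 (0.565 and 0.0855 FPKM). In such bulk RNA, a smaller share of cells that express a gene and less RNA of that gene per cell cannot be told apart.

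The 2 genes with the largest increases among the family lie side by side on the minus strand of chromosome 2. IL1A spans 113531502 to 113542070 and IL1B 113587328 to 113594393 (GRCh37, GENCODE 44), with 45.3 kb between them. Their promoters are shown because these neighbours were both called higher, with that of IL1RAP, which was not called, for contrast. The sequences were taken from RefSeq on GRCh38.p14, where 17 windows of 300 bases, from 250 before to 50 after a transcription start, matched 8 of the 9 genes, and IL18 had none. The 250 bases before the start are printed from 5′ to 3′ on the strand of the gene, for IL1B at chr2:112836780-112837029 (minus strand), for the most upstream start of IL1A at chr2:112784494-112784743 (minus strand) and for IL1RAP at chr3:190513835-190514084 (plus strand). Capitals mark matches on either strand to the letters of the AP-1 motif (TGANTCA), the C/EBP motif (TTNNGNAA), the TATA box (TATAAA) and the NF-κB motif, searched as GGG and CC with any 5 bases between them. Overlapping matches are joined.
IL1B: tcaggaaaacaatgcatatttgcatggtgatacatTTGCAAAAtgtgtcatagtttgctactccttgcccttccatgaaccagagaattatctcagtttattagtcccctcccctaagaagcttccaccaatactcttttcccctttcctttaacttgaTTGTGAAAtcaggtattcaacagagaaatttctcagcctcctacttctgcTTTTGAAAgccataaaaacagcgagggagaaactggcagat
IL1A: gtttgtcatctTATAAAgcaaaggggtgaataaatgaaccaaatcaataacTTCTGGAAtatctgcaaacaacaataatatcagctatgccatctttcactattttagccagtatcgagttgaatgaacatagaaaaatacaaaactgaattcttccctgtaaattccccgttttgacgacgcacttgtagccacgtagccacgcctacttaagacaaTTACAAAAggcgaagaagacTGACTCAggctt
IL1RAP: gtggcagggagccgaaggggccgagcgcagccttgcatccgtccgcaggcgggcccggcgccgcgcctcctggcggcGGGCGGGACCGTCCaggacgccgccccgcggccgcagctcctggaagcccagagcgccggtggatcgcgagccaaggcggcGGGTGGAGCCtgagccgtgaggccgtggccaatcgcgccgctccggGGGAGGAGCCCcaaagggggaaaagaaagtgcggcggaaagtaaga

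In the IL1B window there were 3 matches to the C/EBP letters, with their first bases at -215, -91 and -41 from the start, and none to the other motifs. In the IL1A window there were 2 AP-1 matches, TGACTCA at -12 and TGAGTCA at 39, the latter after the start and not printed, together with C/EBP matches at -199 and -32 and a TATAAA match at -239. A second IL1A start lies 93 bases downstream. The IL1RAP window held 5 matches to the NF-κB letters and none to the other motifs. Among all 35116 promoter windows searched in the same way, a match to the NF-κB letters was present in 58.7%, to AP-1 in 7.7%, to C/EBP in 36.8% and to TATAAA in 11.5%. These letters are short, so a match is not a binding site, and the absence of a match says only that these letters were not in this window. The IL1A and IL1B windows had a GC content of 39.7% and 42.3% with 8 and 2 CpG dinucleotides, against a median of 58.7% and 14 over all windows. The IL1RAP window had 73.7% and 36 CpG dinucleotides. Low GC was not limited to the called genes, as IL33 (39.0% and 42.3%) and IL1RL1 (35.0% and 35.7%), which did not pass the filter, had it too. The most upstream IL1RL1 window also held 3 C/EBP matches. The 4 starts of IL1R1 ranged from 44.3% to 77.7% GC.

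IL1B had the largest change of the family. MDA-MB-231 had 1.43 FPKM (bounds 0.807 to 2.04) and LM2-4175 had 819.1 FPKM (bounds 617.9 to 1020), so the lower bound in LM2-4175 lay 302-fold above the upper bound in MDA-MB-231. The gene was thus low in one line and among the most abundant transcripts of the other. The log2 ratio was 8.40, and 7.67 to 9.14 when computed from opposite ends of the bounds. Without the added 1 FPKM the ratio was 575-fold. IL1B ranked 6th from the top by log2 ratio among the 13911 genes and 2nd among the 12082 protein-coding genes. By FPKM it ranked 11928th of the 13911 genes in MDA-MB-231 and 100th in LM2-4175. IL1B alone held 0.000225% of the FPKM sum of MDA-MB-231 and 0.137% of that of LM2-4175.

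The qPCR primers that the paper lists for IL1B are shown with their place on its exons. The paper describes qPCR on RNA of LM2-4175 cells, in its knock-down experiment of LMO4, and not as a comparison of the lines. The IL1B levels given here are from RNA-Seq and not from these primers.
IL1B forward primer: atgatggcttattacagtggcaa
IL1B reverse primer: gtcggagattcgtagctgga
Both primers matched 6 IL1B transcripts without mismatches and no transcript of another gene. On ENST00000263341.7, which has 7 exons and 1507 bases, the forward primer spans the junction of exons 2 and 3 (between positions 113593189 and 113593776 of chromosome 2 on GRCh37) and the reverse primer lies in exon 4 (113591090 to 113591109), for a product of 132 bases. No annotated exon of another gene overlapped the exons of IL1B or of IL1A on either strand, so no overlapping transcript shares their reads in this annotation.

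IL1A, whose product is active as a precursor and acts within cells and at their surface, was also higher in LM2-4175, from a still lower level. The level was 0.22 FPKM in MDA-MB-231 (bounds 0.0833 to 0.356) and 27.9 FPKM in LM2-4175 (bounds 21.2 to 34.5), and the bounds did not overlap. Being below 0.5 FPKM in MDA-MB-231, IL1A passed the filter only through LM2-4175 and could not be called lower. The log2 ratio was 4.57, the 16th from the top of all genes tested and the 10th of the protein-coding genes. Here the scale mattered. The ratio was 23.7-fold with 1 FPKM added and 127-fold without it (59.6 to 414.5 from opposite ends of the bounds), because the value in MDA-MB-231 was below 1 FPKM. By level, IL1A ranked 13746th of the genes tested in MDA-MB-231 and 3763rd in LM2-4175. The level of IL1B, as FPKM and therefore per length, was 6.49 times that of IL1A in MDA-MB-231 and 29.4 times in LM2-4175, with bounds apart in both lines.

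**Figure D1:**
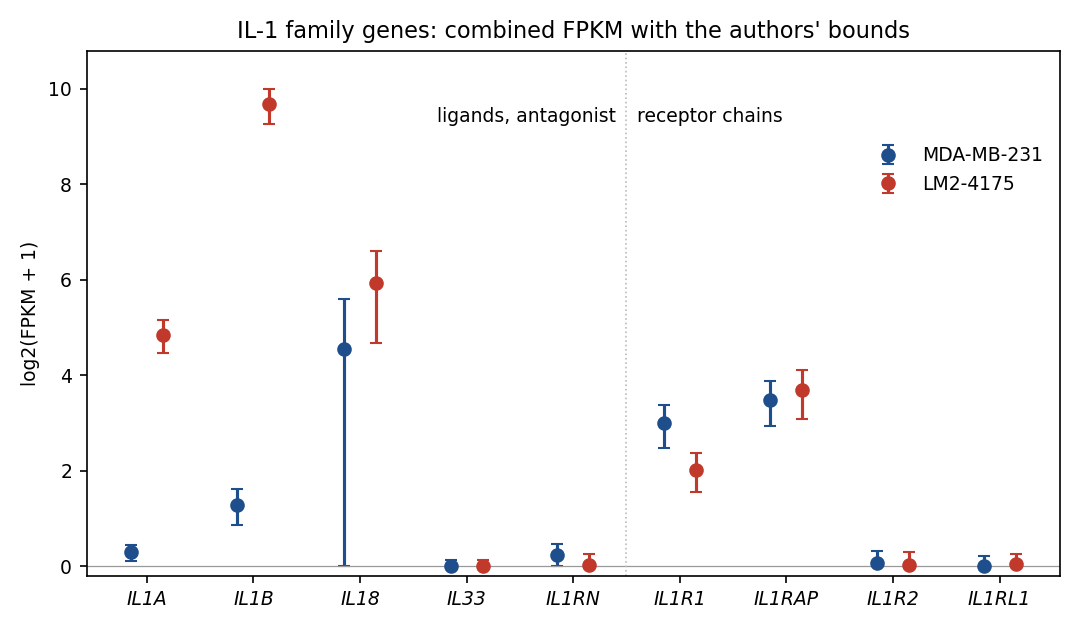
Level of the 9 IL-1 family genes as log2(FPKM + 1) in MDA-MB-231 (blue) and LM2-4175 (red). Points are the authors' combined values and bars their lower and upper bounds. The bars of the lines are apart for IL1A, IL1B and IL1R1, while IL18 has a bar reaching 0 in MDA-MB-231, and IL33, IL1RN, IL1R2 and IL1RL1 lie near 0 in both lines.

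IL18 encodes a cytokine known for inducing interferon-γ in lymphocytes. It had the highest FPKM of the members in MDA-MB-231, with bounds that overlapped those of every other member. Its difference between the lines was not resolved. It had 22.3 FPKM in MDA-MB-231 (bounds 0 to 47.4) and 60.2 FPKM in LM2-4175 (bounds 24.7 to 95.6). The value was 2.70-fold higher in LM2-4175, with a log2 ratio of 1.39, the 321st from the top of all genes tested. The bounds nevertheless overlapped and reached 0 in MDA-MB-231. The upper bound was 112% above the FPKM in MDA-MB-231 and 59.0% above it in LM2-4175, whereas the median over all genes tested was 38.6% and 38.1%. The authors' table placed IL18 in a locus of chromosome 11, from 111895538 to 112095422 (hg19), together with 16 other genes, 5 of which passed the filter. These were DLAT, PIH1D2, C11orf57, TIMM8B and SDHD. Each had a log2 ratio below 0, between -0.54 and -0.11, so IL18 was the only gene of that locus that passed the filter with a higher value in LM2-4175. In MDA-MB-231 their upper bounds were 37.9% to 446% above the FPKM. Whether the shared locus widened the bounds of IL18 was not tested.

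IL33, whose product is an alarmin stored in the nuclei of barrier cells, was close to 0, with 0.000279 FPKM in MDA-MB-231 (bounds 0 to 0.0878) and 0.00844 FPKM in LM2-4175 (bounds 0 to 0.0961). IL1RN, the receptor antagonist, had 0.168 FPKM in MDA-MB-231 (bounds 0 to 0.388) and 0.0209 FPKM in LM2-4175 (bounds 0 to 0.199). Both genes had overlapping bounds that started at 0, so no change of either was detectable at this precision. For IL1RN the upper bound in LM2-4175, 0.199 FPKM, limits how much transcript of the antagonist accompanied 819.1 FPKM of IL1B. IL1RN lies 262.5 kb from IL1B on chromosome 2 (113856892 to 113891593, plus strand).

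IL1R1 was the receptor chain that was called. It encodes the signalling receptor for IL-1α and IL-1β and had 6.95 FPKM in MDA-MB-231 (bounds 4.58 to 9.32) and 3.06 FPKM in LM2-4175 (bounds 1.92 to 4.2). The value was thus 2.27-fold lower in LM2-4175 as a ratio of FPKM, and its bounds were close without touching. The log2 ratio of FPKM + 1 was -0.97, and -1.82 to -0.10 from opposite ends of the bounds. This was a modest change among all genes, the 592nd from the bottom of 13911. On this scale IL1R1 was no longer called at a threshold of 2-fold, because 1 FPKM was added. The log2 ratio was -1.16 with a pseudocount of 0.1 and -1.185 with none, both beyond 2-fold. Of its 7123 exon bases, 11 overlap the antisense gene IL1R1-AS1, a share of 0.15%, and whether the counting used strand is not given in the sources used here.

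IL1RAP, the accessory chain shared by the IL-1 and IL-33 receptors, had 10.1 FPKM in MDA-MB-231 (bounds 6.62 to 13.6) and 11.9 FPKM in LM2-4175 (bounds 7.50 to 16.3). The log2 ratio was 0.21, and the bounds overlapped over most of their width. From opposite ends of the bounds, the log2 ratio could lie between -0.78 and 1.18, so a change within that range was not detectable. The level of IL1RAP was 1.46 times that of IL1R1 in MDA-MB-231, with overlapping bounds, and 3.89 times in LM2-4175, with bounds apart.

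The decoy receptor gene IL1R2 had 0.0518 FPKM in MDA-MB-231 (bounds 0 to 0.243) and 0.0231 FPKM in LM2-4175 (bounds 0 to 0.230). IL1RL1, which encodes the IL-33 receptor ST2, had 0.00356 FPKM in MDA-MB-231 (bounds 0 to 0.156) and 0.0257 FPKM in LM2-4175 (bounds 0 to 0.184). Neither receptor gene passed the filter, and the bounds of both included 0 in each line. IL1RL1 shares 95 of its 5746 exon bases (1.65%) with IL18R1 on the same strand, so a read there cannot be assigned to one of these genes by position alone.

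Within each line the members were ordered by FPKM, and only neighbours with bounds apart were told apart. In MDA-MB-231, IL18, IL1RAP and IL1R1 came first with overlapping bounds from one to the next, followed by IL1B, and then by IL1A, IL1RN, IL1R2, IL1RL1 and IL33, whose neighbouring bounds overlapped. The bounds of IL18 there ran from 0 to 47.37 FPKM, so IL18 was not told apart from any other member. In LM2-4175, IL1B stood alone at the top, 13.6 times the level of IL18 with bounds apart. IL18 and IL1A followed with overlapping bounds, then IL1RAP, then IL1R1, each apart from the next, and the other 4 genes were again together near 0. IL1B was at 0.205 times the FPKM of its receptor gene IL1R1 in MDA-MB-231 and at 267.9 times in LM2-4175. The summed FPKM of the 4 ligand genes was 23.96 in MDA-MB-231, most of it IL18 with its wide bounds, and 907.1 in LM2-4175, most of it IL1B. The summed FPKM of the 4 receptor chains was 17.1 and 15.0.

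**Figure D2:**
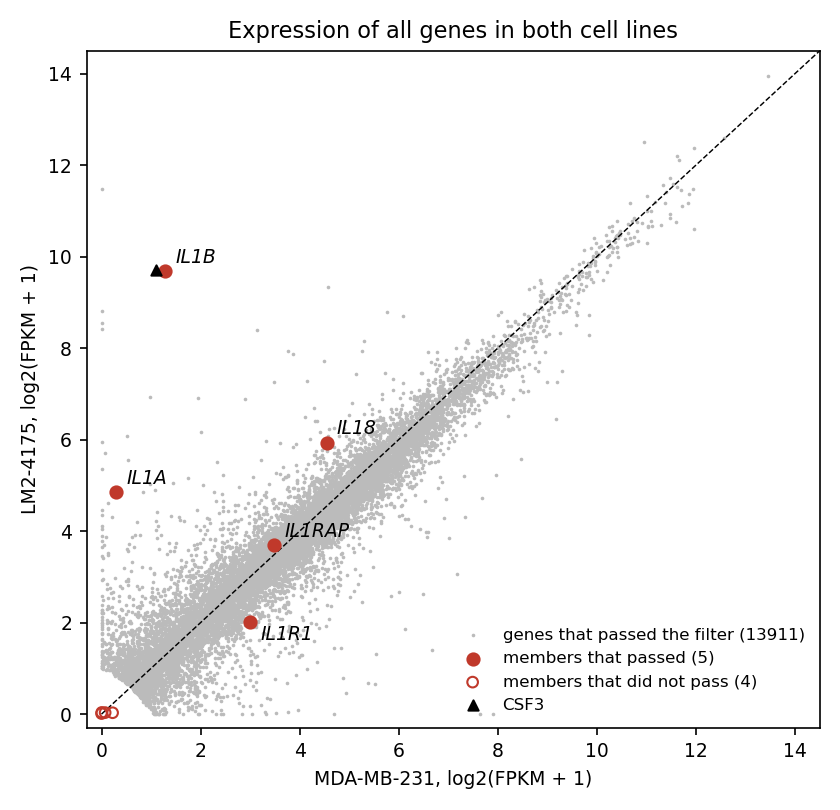
Each point is a gene, with log2(FPKM + 1) in MDA-MB-231 on the horizontal axis and in LM2-4175 on the vertical axis, and the dashed line marks equal values. Among the 13911 genes that passed the filter, IL1B and IL1A lie far above the line, with CSF3 beside IL1B. IL18 also lies above the line, though its bounds overlap between the lines. IL1RAP lies near the line and IL1R1 lies below it.

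The genes whose values in both lines were nearest to those of IL1B and IL1A were found by the Euclidean distance over the 2 values of log2(FPKM + 1), which describes 2 points per gene and no shared control. CSF3, the gene of granulocyte colony-stimulating factor, was nearest to IL1B at a distance of 0.175, with 1.15 FPKM (bounds 0.620 to 1.68) in MDA-MB-231 and 831.1 FPKM (bounds 627.2 to 1035) in LM2-4175. The next 4, MIR1260B, AC009234.2, SNORD116-24 and MIR4461, were farther away at 1.55 to 2.21. All 4 had a listed value of 0 in MDA-MB-231, and the bounds of MIR4461 ran from 0 to 26180 FPKM in LM2-4175. Nearest to IL1A was SERPINB2, which encodes plasminogen activator inhibitor 2, at a distance of 0.286, with 0.0913 FPKM in MDA-MB-231 and 23.5 FPKM in LM2-4175. AC015815.2 followed at 0.475, with 21.2 FPKM in LM2-4175 and a listed value of 0 in MDA-MB-231, and then the monocarboxylate transporter gene SLC16A6 at 0.558, with 0.157 and 18.7 FPKM.

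The genes around IL1A and IL1B were not called. Of 15 protein-coding genes in the ligand cluster of chromosome 2 with 3 flanking genes on either side, 12 were not among the 9 members, and 5 of these passed the filter. Their log2 ratios lay between -0.14 and 0.93. CKAP2L, a mitotic spindle gene next to IL1A, had 38.7 FPKM (bounds 24.7 to 52.6) in MDA-MB-231 and 39.05 FPKM in LM2-4175. SLC20A1, a phosphate transporter gene, had 111.0 and 136.6 FPKM. PSD4 had 0.892 and 1.97 FPKM, PAX8 3.26 and 7.11 FPKM with wide bounds, and ZNG1B 4.82 and 4.27 FPKM. NT5DC4 did not pass. The 6 other ligand genes of the cluster, IL37, IL36G, IL36A, IL36B, IL36RN and IL1F10, were all below 0.15 FPKM in both lines, and IL1F10 was listed at 0 in both. Of the 5 other genes that passed, none was called, where 9.27% of all genes were called in either direction. PSD4 and PAX8 exceeded 1.5-fold (log2 ratios 0.65 and 0.93) but had overlapping bounds. With so few genes, nothing is read from this count.

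In the receptor cluster of chromosome 2, 10.56 Mb from IL1A, IL1R2 and IL1R1 are 36.0 kb apart and IL1R1 and IL1RL1 131.6 kb apart. Of the 9 other protein-coding genes there, MAP4K4 (102.1 and 85.9 FPKM, log2 ratio -0.25) and MFSD9 (3.58 and 3.44 FPKM, log2 ratio -0.04) passed the filter and neither was called. RFX8, FLJ20373, SLC9A4 and SLC9A2 did not pass. Around IL1RAP on chromosome 3 (190231840 to 190377539), 3 of the 10 nearest protein-coding genes passed, and P3H2, a collagen prolyl hydroxylase gene (26.8 and 51.6 FPKM), and CLDN1, the tight junction gene claudin-1 (0.999 and 2.76 FPKM), were called higher, while CCDC50 had a log2 ratio of -0.11. Around IL18, 5 of 10 passed and none was called, with log2 ratios from -0.58, for PTS, to -0.11. The other 4 were the genes PIH1D2, C11orf57 (NKAPD1), TIMM8B and SDHD of the shared locus. Around IL33 on chromosome 9 (6215786 to 6257983), 7 of 10 passed (RIC1, ERMP1, KIAA2026, RANBP6, UHRF2, KDM4C and DMAC1) and none was called. The low value of IL33 thus stood among genes that were detected in both lines. Among all genes 9.27% were called, and these neighbourhoods hold too few genes for their counts to be read against that share.

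**Figure D3:**
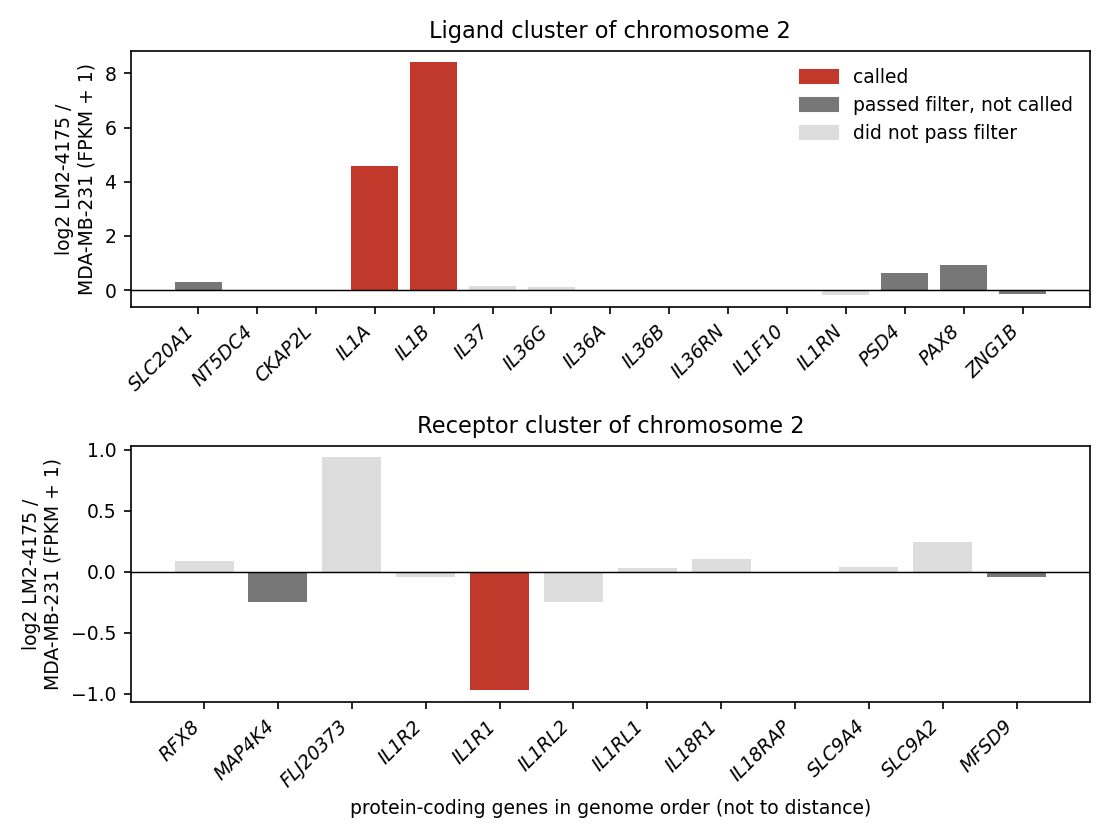
Log2 ratio of FPKM + 1, LM2-4175 over MDA-MB-231, for the protein-coding genes of the ligand cluster (top) and the receptor cluster (bottom) of chromosome 2 in genome order, on separate vertical scales. Red bars are called genes, dark grey bars passed the filter without a call, and light grey bars did not pass. IL1A (4.57) and IL1B (8.40) are the red bars of the ligand cluster and IL1R1 (-0.97) that of the receptor cluster.

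The rest of the IL-1 pathway was described by lists from general knowledge, which were written with earlier results of these data known. Of 7 other receptor and soluble binder genes, 3 passed the filter. IL1RAPL1, a synaptic relative of IL1RAP, was called lower, with 6.94 FPKM (bounds 5.03 to 8.85) in MDA-MB-231 and 2.06 FPKM (bounds 1.36 to 2.76) in LM2-4175. SIGIRR, an inhibitory receptor of the family, had 13.1 and 7.35 FPKM with overlapping bounds, and IL18BP, the soluble IL-18 binding protein gene, had 1.74 and 1.95 FPKM with bounds reaching 0. The IL-36 receptor gene IL1RL2 (0.337 and 0.125 FPKM), the IL-18 receptor chains IL18R1 (0.0882 and 0.170 FPKM) and IL18RAP (0.00582 FPKM and listed at 0), and IL1RAPL2 did not pass. Neither chain of the IL-18 receptor was therefore above 0.5 FPKM in either line.

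Among 12 genes of the inflammasomes and the proteases that process IL-1 cytokines, 10 passed the filter, 3 were called higher (30.0%, against 4.67% of all genes) and none lower, and the median log2 ratio was -0.13, against -0.04 for all genes. CASP1, the protease that cleaves the precursors of IL-1β and IL-18, had 1.18 FPKM in MDA-MB-231 (bounds 0.0557 to 2.30) and 13.3 FPKM in LM2-4175 (bounds 8.30 to 18.4), a log2 ratio of 2.72. CASP4, an inflammatory caspase that senses lipopolysaccharide inside cells, had 24.8 and 75.1 FPKM (log2 ratio 1.56). NLRP3, a sensor that assembles an inflammasome, had 1.79 and 5.23 FPKM (log2 ratio 1.16). The adaptor gene PYCARD (6.79 and 5.41 FPKM), the pore protein gene GSDMD (23.7 and 19.8 FPKM) and CAPN2, a calpain (387.7 and 356.7 FPKM), were not called. Calpains are known to cleave the IL-1α precursor. AIM2, NLRP1, CASP8 and CAPN1 were also not called, and NLRC4 and CASP5 did not pass. Protein cleavage was not measured.

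The signalling core downstream of IL1R1 was detected in both lines, and nearly all of it was not called. All 17 genes of this list passed the filter, 1 was called higher (5.88%, near the 4.67% of all genes) and none lower, and the median log2 ratio was 0.02 with a range of -0.39 to 1.56. The gene called was IRAK2, a kinase of the IL-1 receptor complex, with 5.46 FPKM (bounds 4.0 to 6.93) in MDA-MB-231 and 18.0 FPKM (bounds 13.7 to 22.3) in LM2-4175. MYD88, the adaptor, had 21.2 and 17.6 FPKM, and TRAF6, the ubiquitin ligase that follows it, had 4.99 and 6.29 FPKM. NFKB2, which encodes an NF-κB subunit, had 23.0 and 39.7 FPKM with overlapping bounds. The summed FPKM of the list was 410.2 and 410.1. Such a sum can hide opposite differences, as IRAK1 had 125.3 and 95.37 FPKM with overlapping bounds, while IRAK2 and NFKB2 had higher values in LM2-4175.

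Of 10 inhibitors and feedback genes of this pathway, 6 were called higher (60.0%, against 4.67% of all genes) and none lower, and the median log2 ratio was 1.41, against -0.04 for all genes. ZC3H12A, an RNase that degrades cytokine transcripts, had 3.99 and 24.4 FPKM (log2 ratio 2.35), and TNFAIP3, the ubiquitin-editing enzyme A20, had 2.72 and 11.2 FPKM (log2 ratio 1.72). TNIP3 (0.342 and 3.06 FPKM) and TNIP1 (94.7 and 241.6 FPKM) encode partners of TNFAIP3. TNIP3, counted among the 6, was below 0.5 FPKM in MDA-MB-231. It passed the filter only through the other line and could not be called lower. IRAK3, a kinase homologue that blocks IL-1 receptor signalling, had 0.706 FPKM (bounds 0.333 to 1.08) and 3.97 FPKM (bounds 2.69 to 5.24). The sixth gene called was NFKBIA, which encodes the NF-κB inhibitor IκBα (38.5 and 68.5 FPKM). NFKBIZ and TRAF3IP2, which have activating roles and are counted in this list of 10, were not called, nor were NFKBIE and TOLLIP. IL1RN, the antagonist that acts at the receptor itself, was near 0 beside these genes, which act after the receptor.

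Genes known to respond to IL-1 had the highest median among the pathway lists. Of 26 such genes, 24 passed the filter, 20 were called higher (83.3%, against 4.67% of all genes) and none lower. The median log2 ratio was 2.52, against -0.04 for all genes. PTGS2, CCL20, MMP3 and MMP9 were below 0.5 FPKM in MDA-MB-231. These genes passed the filter only through LM2-4175 and could not be called lower. The list summed to 451.6 FPKM in MDA-MB-231 and 3569 FPKM in LM2-4175. The 5 genes called with the largest change were CSF3 (log2 ratio 8.60), the neutrophil chemokine gene IL8 (7.75 and 338.2 FPKM, log2 ratio 5.28), the prostaglandin synthase gene PTGS2 (0.455 and 45.97 FPKM, log2 ratio 5.01), the chemokine gene CXCL1 (2.86 and 118.9 FPKM, log2 ratio 4.96) and the collagenase gene MMP1 (22.7 and 643.3 FPKM, log2 ratio 4.77). CCL2, a monocyte chemokine gene, had 2.73 and 1.05 FPKM with overlapping bounds, and SOD2, PLAU and MMP3 were likewise not called. CXCL5 and CXCL6 were under the filter. All of these genes also respond to other stimuli, and no cells without IL-1 signalling were measured, so the part of IL1A and IL1B in these differences was not tested.

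**Figure D4:**
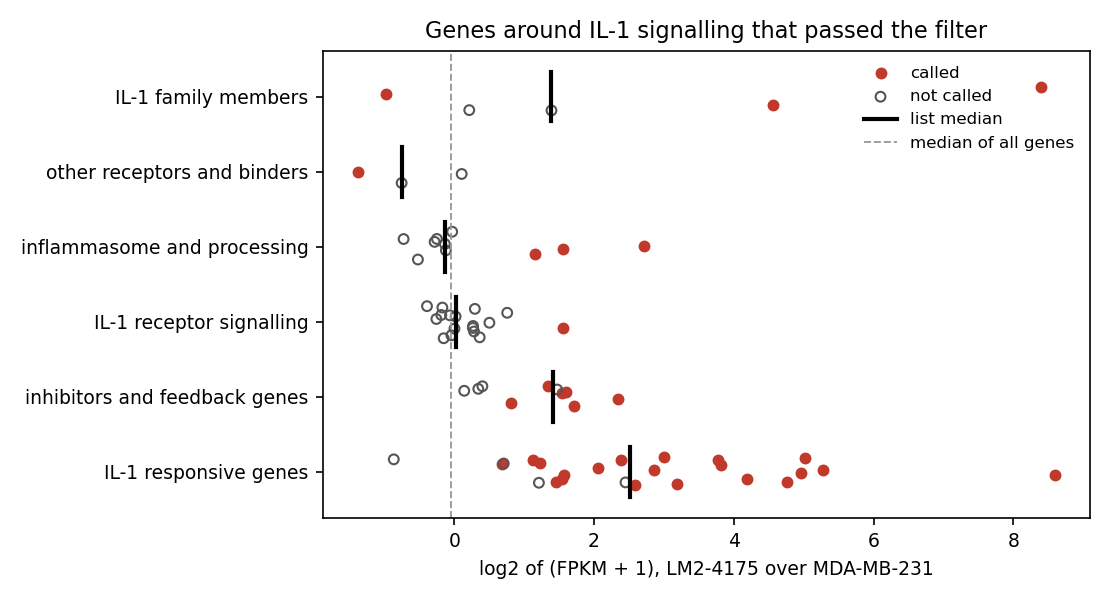
Log2 ratio of FPKM + 1, LM2-4175 over MDA-MB-231, for each gene that passed the filter, in 6 lists. Filled red points are called genes, open points are not called, black bars are list medians and the dashed line is the median of all genes (-0.04), and points are spread vertically only to be seen. The medians of receptor signalling (0.02) and of inflammasome and processing genes (-0.13) lie near the dashed line, and those of inhibitors and feedback genes (1.41) and of responsive genes (2.52) lie to its right.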

How the data were processed

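The authors extracted total RNA from both untreated cell lines, prepared 2 TruSeq libraries of each and sequenced paired reads of 150 bases on a HiSeq 2500. According to the submitters' processing notes and the methods, reads were aligned to hg19 with TopHat 2.0 and GENCODE 19 genes were quantified with Cufflinks and Cuffdiff. The deposited table holds, per gene and cell line, 1 FPKM value made by the authors from both libraries, with 2 bounds and a status. How library sizes were scaled, whether strand was counted and what spread the bounds cover are not given in the sources used here. FPKM keeps no read counts, so the number of reads behind each value was not examined and precision was read from the bounds.

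Ratios were computed as log2(FPKM + 1) differences in Python 3.11.15 with NumPy 2.4.6 and pandas 2.3.3, and drawn with Matplotlib 3.10.9. A gene was kept when its status was OK in both lines, which 8 genes failed, and its mean reached 0.5 FPKM, and a gene was called at 1.5-fold or more with bounds apart. limma had been planned only for the case of 1 value per library. The genes described and the lists were chosen with earlier results of these data known. Named are all 9 members, up to 5 called genes with the largest change per list, every gene of lists with 7 or fewer, the nearest 5 genes to IL1B and 3 to IL1A, the neighbouring genes (around IL1RAP, IL18 and IL33, those that passed the filter), and the highest gene of each marker list. Other named genes were chosen after their values were seen. Positions and exon overlaps are from GENCODE 44 on GRCh37, promoters from RefSeq on GRCh38.p14. The steps were tested on simulated data. Alternatives were pseudocount, filter, call rule and scaling.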

Additional observations from a re-analysis of the deposited data

How the results depend on the processing

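No paired analysis was possible because the libraries of each line are combined in 1 value, and for the same reason no library could be left out. The 3 calls among the IL-1 family genes, IL1A, IL1B and IL1R1, were kept with a pseudocount of 0.1, without the filter, at a mean of at least 5 FPKM, by bounds alone and after scaling to TPM. At 2-fold of FPKM + 1 IL1R1 was not called (2 genes), and by the fold alone IL18 was added (4 genes). Of 36 alternatives for the members' log2 ratios, none turned the direction of a called gene and 10 lay outside the values computed from the bounds. The sign of IL1R2, which did not pass the filter, turned from -0.04 to 0.0045 when the median of all genes was set to 0. Among the 10 values outside the bounds were, for IL1A, 6.45 with a pseudocount of 0.1, 6.99 with none and 5.14 after scaling to TPM. For IL1B the value was 9.17 with none. The others belonged to IL33, IL1RN, IL1R2 and IL1RL1, which did not pass the filter. Of 56 alternatives for counts, 50 stayed within 1.5 times. These include the 7 for the other IL-1 family ligands, with 0 genes called in every setting, and the loss of IL1R1 at 2-fold. The count of other receptor and binder genes called was 0 at a mean of at least 5 FPKM and 2 by the fold alone, with SIGIRR added, and that of receptor signalling genes was 2 by the fold alone, with NFKB2 added. Of all genes, 764 were called at a mean of at least 5 FPKM (321 higher, 443 lower), 853 at 2-fold and 3074 by the fold alone, against 1290. Scaling to TPM moved the median log2 ratio by 0.07. It gave 1282 calls, 1192 of them shared with the 1290, and changed their balance to 735 higher and 547 lower, from 649 and 641.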
